A study of Rattus norvegicus with 3 samples.

Results

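The comparison described here set kidneys reperfused in rats that received a peptide derived from the chemokine CCL5 against kidneys reperfused in rats that received saline. Each gene was represented by the probe set (a set of short array probes for 1 transcript) with the highest mean over the 3 arrays of the study. It counted as measured if neither the peptide array nor the control array had it under that array's median. This left 9268 of 14218 genes. Differences are peptide minus control on the log2 scale, so that a difference of 1.0 is 2-fold.

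The donors were male Wistar rats of 370 to 508 g. After exsanguination the left kidney was left for 20 min of warm ischaemia, as in donation after circulatory death, then flushed and kept cold in University of Wisconsin solution for 17 ± 0.7 h. It was then perfused with blood from the femoral artery of an anaesthetised recipient for 5 h and 43 min ± 21 min, with 7 recipients per group. The control group received normal saline at 1 ml per h, the peptide group peptide 2 at 0.5 mg per ml, and a further group heparin at 100 U per ml per h. All groups shared the warm and cold ischaemia and the perfusion with whole blood, and heparin was not used as an anticoagulant outside its own group. The labels' protocol speaks of an infusion and the series' design text of a bolus, and neither gives the amino acids of peptide 2 beyond its origin in the heparin-binding domain of CCL5. RNA of 3 kidneys per group, those with the best RNA, was pooled in equal molar amounts and hybridised to 1 array. Kidneys without reperfusion and single kidneys were not analysed here.

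CCL5 is a chemokine that draws T cells, monocytes and other leukocytes to inflamed tissue. It is held on the surface of endothelium by the sulfated sugar chains of heparan sulfate proteoglycans and acts on leukocytes through receptors that include CCR1 and CCR3. A peptide of its heparin-binding domain can compete for those sugar chains. The question of the design was whether such a peptide, or heparin itself, altered the inflammatory response of the reperfused kidney. Many of the larger differences were those of interferon-stimulated genes. Type I interferons, such as interferon beta, act through receptor-bound kinases on transcription factors, among them STAT2 and IRF9, which bind a short DNA motif, the interferon-stimulated response element, near the start of many antiviral and antigen-presenting genes.

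With 1 array per group no difference had a replicate check, no test was made, and treatment, pool and array cannot be told apart. The 3 arrays had medians of 4.14 to 4.16 and the same lowest value, 2.18. Some kidney transcripts, named outside the rule and after their values were seen, had like values in the control and peptide pools. The androgen-regulated proximal tubule gene Kap read 15.41 on both arrays, and uromodulin (Umod, of the thick ascending limb) 14.85 and 14.88. The phosphate transporter Slc34a1 read 14.09 and 14.22, and the thiazide-sensitive transporter Slc12a3 10.16 and 9.99. The water channel Aqp2 read 11.41 on both, and nephrin (Nphs1) of podocytes 8.38 and 8.34. Other markers of these segments differed more. Differences ran from -0.645 to 0.807 among genes of the loop, distal tubule and collecting duct, and from -0.793 to 0.385 among podocyte markers. For beta-actin the probe set at the 3′ end exceeded that at the 5′ end, a measure of RNA integrity, by amounts close to each other. The gap was 2.33 in control and 2.34 in peptide (2.95 on the heparin array). For GAPDH it was 0.36 in control, 0.37 in peptide and 0.32 on the heparin array, and for hexokinase 2.18, 2.28 and 2.18.

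Most genes had nearly the same value in the peptide and control pools. Identical values on both arrays were found for 3659 genes (39.5%), 2967 (32%) were higher and 2642 (28.5%) were lower by any amount, and the median difference was 0.00. A difference of 0 can come from the summarisation of probes, so identical values do not show equal transcript levels. The standard deviation of the differences across genes, which is no replicate error, was 0.233, and the lowest 1% of genes lay below -0.56 and the highest 1% above 0.87. The tails were unequal. The 2-fold line was passed upward by 67 genes (0.723% of those measured) and downward by 11 (0.119%), together 78 (0.842%). At 1.5-fold (a log2 difference of 0.58) 196 were higher (2.11%) and 85 lower (0.917%), together 281 (3.03%), and at 4-fold 10 were higher (0.108%) and 0 lower (0%). These shares are the background against which the counts of each gene family are read. In an RNA pool of whole kidney, fewer cells of a type and less RNA per cell cannot be told apart.

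**Figure D1:**
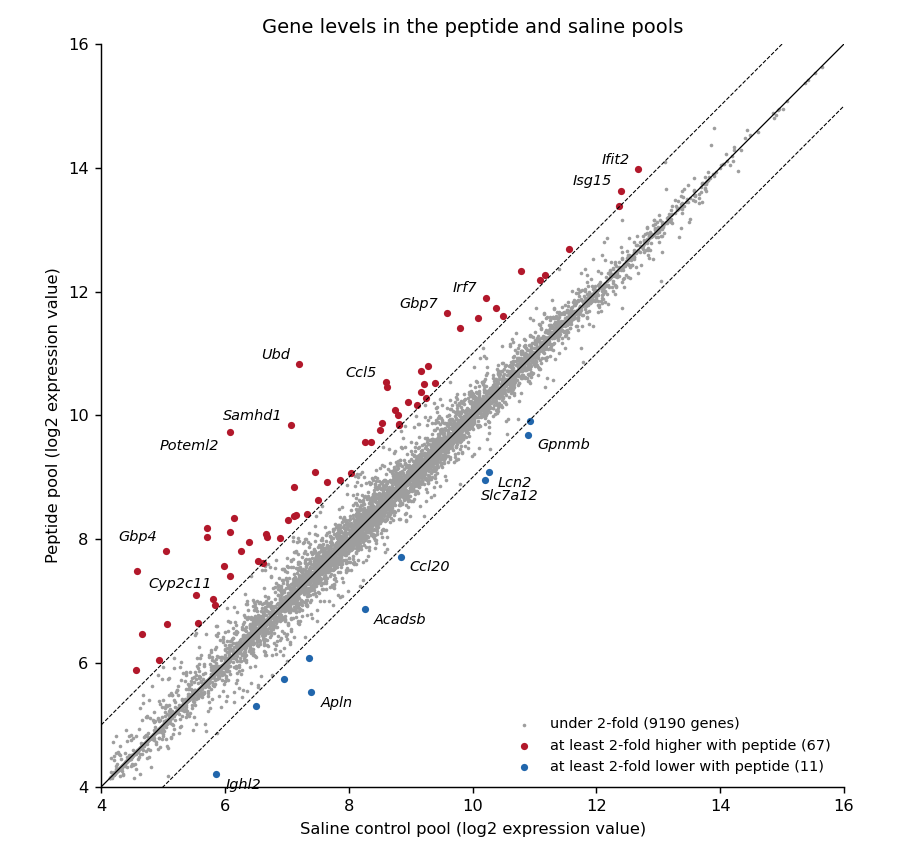
Log2 expression values of the 9268 measured genes in the saline control pool (x axis) and the peptide pool (y axis), 1 array each. The solid line marks equal values and the dashed lines 2-fold differences; 67 genes lie above the upper line over the whole range of levels and 11 lie below the lower line.

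The larger differences were not confined to dim probe sets. When the measured genes were split into 4 groups of 2317 by mean level, from the dimmest to the brightest, the genes past 2-fold upward numbered 11, 19, 14 and 23, and those past it downward 5, 1, 1 and 4. Genes at least 2-fold higher had a median of 7.65 in control and 9.57 in peptide. Of the 67, 9 had a further measured probe set, and 0 of these pointed the other way. Among all genes with a further measured probe set it was 290 of 2235. Most of those genes differed little, so that a sign can turn easily, and these shares cannot be compared. At the edge of the filter, Alkbh2 (4.145 on both arrays) and Fgfbp3 (4.146 on both) were just inside. Adgrg6 (4.143 on both) was just outside, and so was Nlrc5, which switches on class I histocompatibility genes and read 4.142 in control and 5.324 in peptide. In all 23 genes, Nlrc5 among them, were below the median in control alone, and 10 in peptide alone. Only 2 of them were bright enough on the other array for a bound, both higher in peptide. The interferon-induced transcription factor Batf2 read 4.09 in control and 6.37 in peptide, at least 4.69-fold higher, and Ifnb1, the gene of interferon beta, read 3.31 and 6.38, at least 4.71-fold higher.

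The 20 largest positive differences were led by Poteml2 (6.08 in control, 9.73 in peptide, 12.6-fold higher) and Ubd (7.20 and 10.83, 12.4-fold). Ubd encodes FAT10, a ubiquitin-like protein. Samhd1, which degrades deoxynucleotides, Gbp4, Uba7, Zbp1, Parp10, Gbp7, Ccl5, Usp18, Tnfsf10, Irf7, Gbp2, Apol9a and RT1-T24-4 were also among the 20, and most of them belong to interferon-stimulated families. Outside those families stood 2 cytochrome P450 genes. Cyp2c11, a male-specific enzyme best known from rat liver, read 4.58 in control and 7.48 in peptide, and Cyp27a1, the mitochondrial sterol hydroxylase, 6.08 and 8.11. Of the 22 measured members of the P450 list these were the ones at least 2-fold higher, and the next in size were the dioxin-inducible Cyp1a1 (-0.93), the retinoic acid hydroxylase Cyp26b1 (-0.35) and the electron donor Por (0.35).

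Cd69, an early activation antigen of lymphocytes, read 4.66 in control and 6.47 in peptide, 3.52-fold higher. Tent5a, a poly(A) polymerase of the non-canonical kind, read 7.45 and 9.08, and Rasa4, which switches off Ras, 5.99 and 7.57. The heparin array stood beside these as follows, with the reservation that both treatments were set against the same control array: Poteml2 9.51, Ubd 11.43, Cyp2c11 6.73, Cyp27a1 7.99, Cd69 5.83, Tent5a 9.22 and Rasa4 7.57. Each of these values lay above that gene's control value. For Ccl5 the heparin value (9.39) lay between those of control (8.60) and peptide (10.54).

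**Figure D2:**
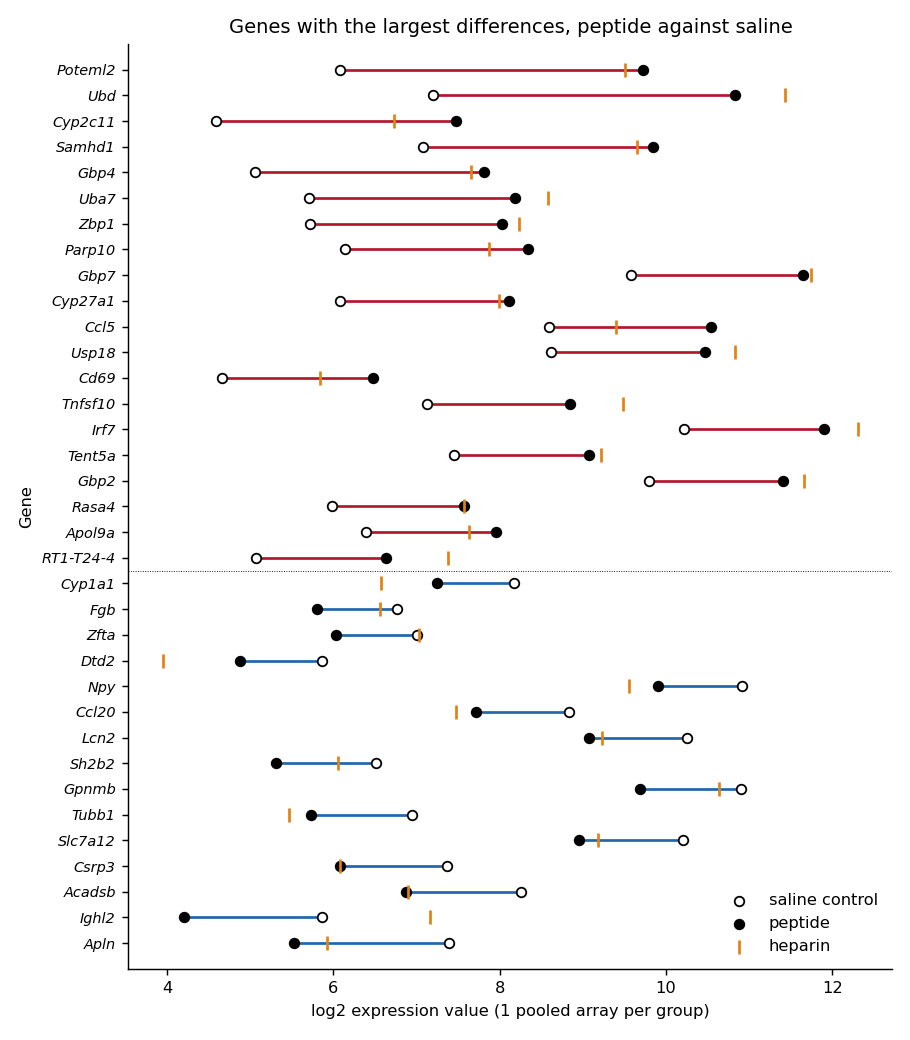
Log2 expression values in the peptide pool (filled circles), the saline control pool (open circles) and the heparin pool (orange ticks), 1 array each, for the 20 highest and the 15 lowest differences between peptide and control. Positive differences reach 3.65 (Poteml2) and negative ones -1.86 (Apln).

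Interferon ligands, receptors and transcription factors, 21 measured genes, had a median difference of 0.00. At least 1.5-fold higher were 3 of them and at least 1.5-fold lower 1. Irf7, the factor that amplifies the type I interferon response, read 10.22 in control and 11.90 in peptide, 3.20-fold higher, with 12.31 on the heparin array. Stat2 differed by 0.91 (a second probe set by 0.76) and Irf8, a factor of myeloid cells, by 0.70. Irf1 read 9.40 and 9.93 (0.53), and Irf9 8.73 and 9.03 (0.30, with a second probe set at 0.58). The interferon receptor gene Ifnar1 was the lower one, at 7.05 and 6.30, but its 3 other measured probe sets differed by -0.01 to 0.00. All 4 named transcription factors of the Irf family were higher in the peptide pool, but list members were named for the size of their differences. Of the 21 measured genes of the list 10 were higher, 3 lower and 8 identical.

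Cytosolic nucleic acid sensors recognise foreign or misplaced RNA and DNA. Of 14 measured members, 5 were at least 1.5-fold higher, 3 of these at least 2-fold, and 0 were 1.5-fold lower, with a median of 0.05. Zbp1, which binds left-handed (Z-form) RNA and DNA and can trigger necroptosis, read 5.71 in control and 8.03 in peptide (4.97-fold). Ddx60, a helicase, read 9.17 and 10.72, and Dhx58, a regulator of the RNA sensors, 8.27 and 9.57. The RNA sensors themselves differed less: Ifih1 (MDA5) by 0.97, and the gene with the synonym Ddx58, listed under the symbol Rig1, by 0.71. Sting1, the adaptor for cytosolic DNA, read 5.32 on both arrays, and Mavs, the adaptor of the RNA sensors, 6.53 on both. These adaptors were looked up after the values of the list were seen.

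The interferon-inducible GTPases, large GTP-binding proteins that attack the compartments and capsids of pathogens, had a median of 1.12. Of the 9 measured members, 7 passed 2-fold upward and 0 passed 2-fold downward. The guanylate-binding proteins were the highest: Gbp4 read 5.05 in control and 7.82 in peptide (6.79-fold), Gbp7 9.59 and 11.65 (4.19-fold), and Gbp2 9.79 and 11.41 (3.06-fold). The Mx protein Mx1, which blocks influenza and related viruses, read 10.09 and 11.57. The immunity-related GTPases Irgm2, Irgm and Igtp were higher by 1.12, 1.09 and 1.04 (the last pair named after their values were seen). Mx2 was lower by its brightest probe set (13.33 and 12.88), whereas its other measured probe set differed by 1.94, so no direction can be given for it. Probe sets of close relatives such as these can take up each other's transcripts, and members of a family are not independent of each other.

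Among the Ifit, Oas and other antiviral effectors, 35 of the 37 genes on the array were measured. Their median was 0.74, 22 were at least 1.5-fold higher, 11 of these at least 2-fold, and 0 were 1.5-fold lower. After Samhd1 (7.07 and 9.84, 6.83-fold) came Cmpk2, a nucleotide kinase, at 10.78 and 12.34, with a second probe set at 1.95. Oas1b, of the family that activates the antiviral RNase L, read 7.01 and 8.32. Ifit2, which binds RNA and restrains translation, read 12.68 and 13.97. Trex1, the exonuclease that removes cytosolic DNA, read 9.21 and 10.50. The members that stayed near control, named after their values were seen, were Ifitm1, Ifitm2 and Plscr1, with identical values on both arrays, and Bst2 (tetherin, 0.08), Ch25h (an oxysterol-forming enzyme, -0.03) and Ifi27 (-0.09). Ifit1, under the median in peptide and so not measured, ran against the list, at 4.93 in control, 3.31 in peptide and 6.91 on the heparin array.

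ISG15 and FAT10 are ubiquitin-like proteins that enzymes attach to other proteins. Of 9 measured genes of these pathways, 5 were at least 2-fold and 7 at least 1.5-fold higher, and 0 were 1.5-fold lower, with a median of 1.11. Isg15 itself read 12.40 in control and 13.63 in peptide. Its activating enzyme Uba7 read 5.71 and 8.18 (a difference of 2.48, with a second measured probe set at 1.61, or 1.40 with the mean of its probe sets), and its conjugating enzyme Ube2l6 5.83 and 6.94. Usp18, which removes ISG15 and restrains interferon receptor signalling, read 8.62 and 10.46. The modifier, its activating and conjugating enzymes and its protease were all at least 2-fold higher. The values on the heparin array were 13.74 for Isg15, 8.58 for Uba7, 7.10 for Ube2l6 and 10.83 for Usp18.

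The PARP family transfers ADP-ribose to proteins. Of 13 measured members, 5 were at least 1.5-fold higher, 2 at least 2-fold, and 0 were 1.5-fold lower, with a median of 0.17. Parp10 read 6.14 in control and 8.34 in peptide (4.61-fold). Parp14, Parp9 and Parp12 differed by 1.03, 0.94 and 0.89, and Dtx3l, the ubiquitin ligase partner of Parp9, by 0.92. Of the 23 measured TRIM ubiquitin ligases, 2 were at least 1.5-fold higher, the retrovirus restriction factor Trim5 (7.97 and 8.73) and Trim25, which activates an RNA sensor (8.53 and 9.20), and 0 were at least 2-fold apart.

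**Figure D3:**
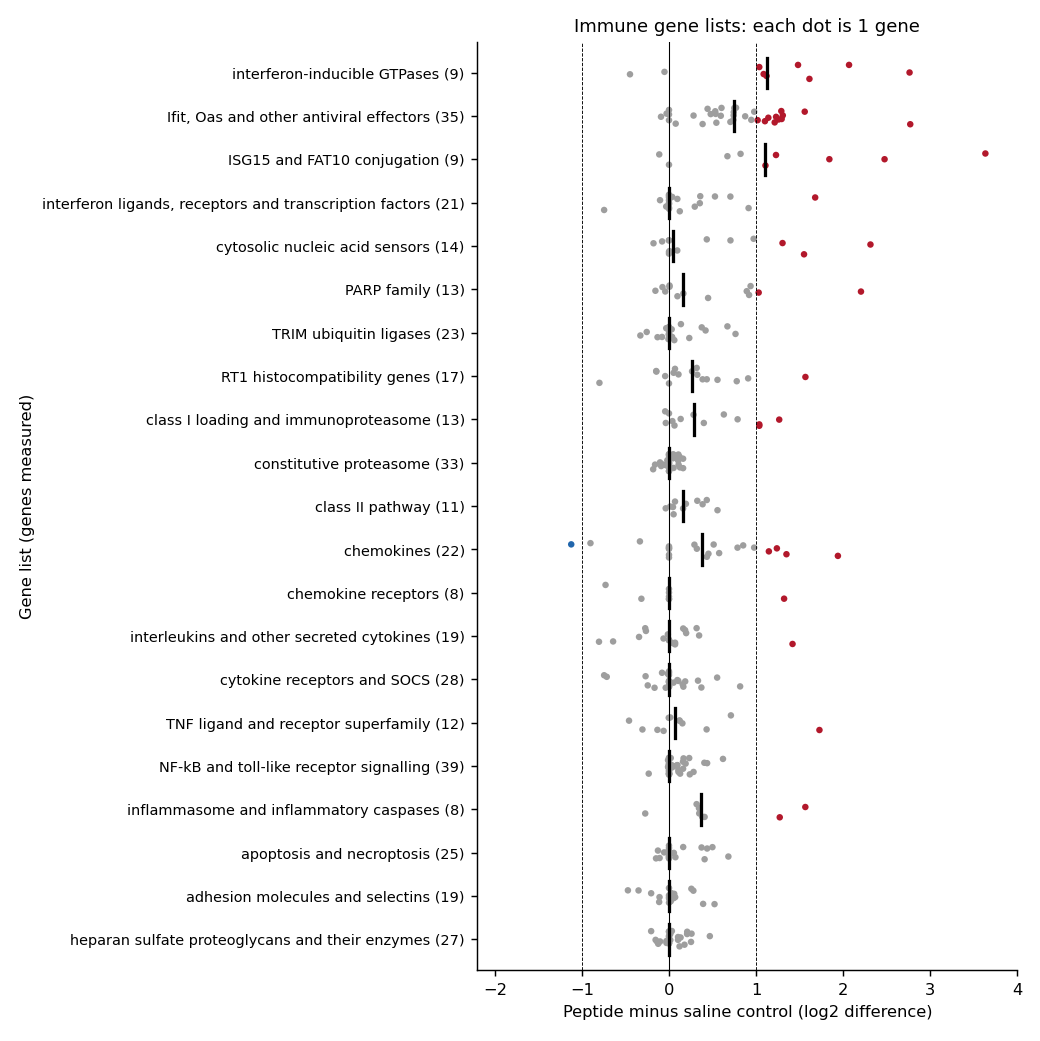
Peptide minus saline control differences (log2) of the measured genes of each immune gene list, with the number measured in brackets; each dot is a gene, black bars are list medians, dashed lines mark 2-fold and coloured dots are genes past it. The GTPase, ISG15 and FAT10, and antiviral effector lists have medians of 1.12, 1.11 and 0.74, whereas the constitutive proteasome list lies within -0.18 and 0.16.

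The promoters of these genes were read from RefSeq (rat assembly GRCr8, 250 bases before to 50 bases after the start, the first start listed for each gene) and searched on both strands for the core of the interferon-stimulated response element, taken as GAAA, any 2 bases, GAAA. On the other strand the same core reads TTTC, any 2 bases, TTTC. Of 27457 genes with a promoter in that table, 1034 held a match (3.77%), and of the 7767 measured genes with a promoter 234 did (3.01%). Among genes at least 2-fold higher with peptide it was 21 of 53 (39.6%) and among those 1.5-fold to 2-fold higher 22 of 111 (19.8%). Genes with identical values held it in 69 of 3067 cases (2.25%), and genes at least 1.5-fold lower in 0 of 68. Of the 67 genes at least 2-fold higher, 53 had a promoter in that table. Ccl5, Usp18, Zbp1, Parp10, Isg15, Ifit2, Dhx58 and Ccl2 were among those without one and were not searched. Promoters differ in base composition, many of the matched genes are relatives, and a match is a description of the letters, not a bound site. The windows of 40 bases that follow show matches, in capitals, for members of these families past 2-fold upward, 5′ to 3′ on the strand of the gene. They were chosen after the matches were known, to show how the core sits in genes of different families.

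The guanylate-binding protein genes are neighbours among the measured genes. Each held the core on the opposite strand, within 41 bases of the start (windows identical at 18 to 21 of 40 positions):
Gbp7, chr2:233948833-233948872 (+ strand): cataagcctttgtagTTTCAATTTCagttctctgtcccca
Gbp4, chr2:233978461-233978500 (+ strand): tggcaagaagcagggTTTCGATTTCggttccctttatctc
Gbp2, chr2:234005681-234005720 (+ strand): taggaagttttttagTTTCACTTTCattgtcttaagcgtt

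Ifgga2l1, also at least 2-fold higher but not shown, held the core on the opposite strand. The immunity-related GTPase genes Irgm2, Igtp and Irgm held it in the orientation of the gene. The windows of Irgm2 and Igtp, neighbours among the measured genes, were identical at 34 of 40 positions:
Irgm2, chr10:42889853-42889892 (+ strand): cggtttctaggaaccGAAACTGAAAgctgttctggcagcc
Igtp, chr10:42874929-42874968 (+ strand): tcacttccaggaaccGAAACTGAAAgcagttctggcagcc
Irgm, chr10:33742588-33742627 (- strand): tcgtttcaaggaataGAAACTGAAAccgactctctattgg

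Oas1a and Oas1b are also neighbours among the measured genes. In each promoter a pair of overlapping matches was found, of which the one nearer the start is shown (32 of 40 positions identical):
Oas1a, chr12:41330416-41330455 (+ strand): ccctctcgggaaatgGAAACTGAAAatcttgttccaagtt
Oas1b, chr12:41395881-41395920 (- strand): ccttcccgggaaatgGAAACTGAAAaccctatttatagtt

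The last set shows genes with other roles: the transcription factor Irf7, the exonuclease Isg20, Ifit3, the ADP-ribosyltransferase Parp14 and the peptide transporter subunits Tap1 and Tap2:
Irf7, chr1:205800068-205800107 (- strand): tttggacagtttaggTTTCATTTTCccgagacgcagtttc
Isg20, chr1:142239952-142239991 (+ strand): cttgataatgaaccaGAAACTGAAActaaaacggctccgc
Ifit3, chr1:241527267-241527306 (+ strand): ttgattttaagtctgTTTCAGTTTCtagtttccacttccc
Parp14, chr11:78408043-78408082 (+ strand): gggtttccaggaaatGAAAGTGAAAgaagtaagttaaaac
Tap1, chr20:4668640-4668679 (- strand): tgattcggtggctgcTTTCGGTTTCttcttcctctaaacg
Tap2, chr20:4652313-4652352 (- strand): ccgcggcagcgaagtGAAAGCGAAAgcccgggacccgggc

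In all, 25 matches were found in the 21 promoters, 4 genes having 2. Their first base lay between positions -136 and -10 counted from the start, with a median of -58, and 23 of the 25 lay within 110 bases. The values of the genes whose windows are shown were, in control and peptide, 8.36 and 9.57 for Oas1a, 8.51 and 9.77 for Isg20, 12.37 and 13.39 for Ifit3, 8.82 and 9.85 for Parp14, 7.32 and 8.41 for Irgm, and 9.24 and 10.28 for Igtp. The gene of Batf2, for which only a bound could be given, held the core with its first base at position -73. A shorter motif, the gamma-activated sequence TTCNNNGAA that interferon gamma acts through, was found in 10 of the 53 promoters (18.9%) and in 527 of 7767 (6.79%). For kappa-B only 1 fixed spelling was searched, on both strands as well (GGGA, any base, TTTCC). It was found in 1 of 53 (1.89%) and 35 of 7767 (0.451%). Near spellings were not counted, such as ggggatttcc in the Ubd promoter and gggaaattcc in the Ifnb1 promoter, so kappa-B sites may be missed. The promoters of Poteml2, Ubd and Cyp2c11 held no match to the interferon-stimulated response element core in this window. Neither did those of Samhd1, Uba7, Mx1, Cmpk2, Trex1, Ube2l6 and Psmb9, genes of the interferon and class I lists. The lack of a match says only that the letters are not there.

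**Figure D4:**
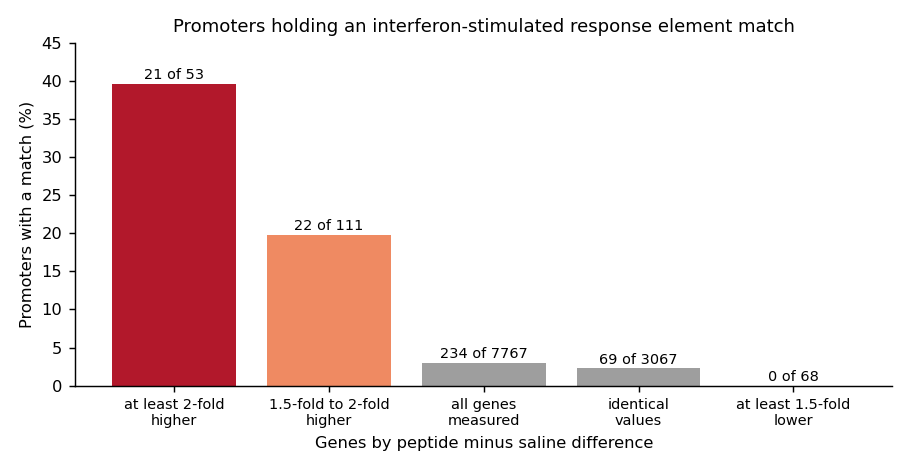
Share of RefSeq promoters (y axis, %) with a match to the response element core on either strand, for genes grouped by their peptide minus saline difference (x axis); the numbers over the bars are promoters with a match out of promoters in the table. The share is 39.6% for genes at least 2-fold higher and 3.01% for all genes measured.

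Genes that were higher with peptide often lay beside each other when the measured genes were taken in genome order. Of the 67 genes at least 2-fold higher, 19 (28.4%) had another such gene as the next measured gene on the chromosome, whereas 131 of all 9240 measured genes with a position (1.42%) did. At 1.5-fold it was 44 of 196 (22.4%) against 4.17%, and for genes 1.5-fold lower 4 of 85 (4.71%) against 1.83%. The runs of genes at least 2-fold higher were mostly families: Gbp7, Gbp4 and Gbp2 on chromosome 2, Ifit2 and Ifit3 on chromosome 1, Igtp and Irgm2 as well as the chemokines Ccl2 and Ccl7 on chromosome 10, Oas1a and Oas1b on chromosome 12, and Casp1 and Casp4 on chromosome 8. Other runs joined genes of different families. Tap1 and Psmb9 lay together on chromosome 20, and at 1.5-fold the run took in Tap2 and Psmb8. The chemokine receptor-like gene Ccrl2 lay beside Rtp3, and at 1.5-fold Stat2 lay beside Il23a. Relatives can share probe and promoter sequence, so these runs are not independent observations.

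Class I histocompatibility molecules show peptides of the cell's own proteins to cytotoxic T cells. Of 13 measured genes that make and load those peptides, 5 were at least 1.5-fold and 3 at least 2-fold higher, 0 were 1.5-fold lower, and the median was 0.28. The transporter subunits Tap1 (7.65 in control, 8.92 in peptide) and Tap2 (8.04 and 9.07) carry peptides into the endoplasmic reticulum. The immunoproteasome subunits Psmb9 (8.82 and 9.85), Psmb10 (7.17 and 7.95) and Psmb8 (7.88 and 8.52) cut them. Tap1 had a dim second probe set at 2.22 on both arrays, and with the mean of its probe sets its difference was 0.63. The 33 measured subunits of the constitutive proteasome differed by -0.18 to 0.16, with a median of 0.00, so that 3 immunoproteasome subunits lay above the whole range of the constitutive ones.

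Of the 17 measured genes of the rat histocompatibility complex named RT1, 3 were at least 1.5-fold higher and 1 was 1.5-fold lower, with a median of 0.27 (0.07 with the mean of each gene's probe sets). RT1-T24-4 read 5.06 and 6.63, RT1-N3 6.69 and 7.60, and RT1-S3 10.18 and 10.96, with its 3 other probe sets at 1.02 to 1.29. RT1-T24-3 went the other way, at 8.59 and 7.79. These class I genes are near-identical copies, and their probe sets cannot be assigned to single genes with certainty. The class II pathway, through which macrophages and dendritic cells present engulfed proteins, had 11 measured genes with a median of 0.16 (as low as 0.07 under the alternatives), and 0 were 1.5-fold apart in either direction. RT1-Bb differed by 0.43 at its brighter probe set (11.84 and 12.27), but a second one read 7.47 in control and 3.73 in peptide. RT1-Ba differed likewise by 0.39 and, at a second measured probe set, by -0.96. With the mean of probe sets both differences were negative (-1.66 and -0.14), so no direction is given for them. RT1-DMb, which helps load class II molecules, differed by 0.56.

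Ccl5, the parent gene of the peptide, read 8.60 in control, 10.54 in peptide and 9.39 on the heparin array, 3.84-fold higher with peptide than with saline. An array of gene transcripts cannot measure the peptide given. Ccl5 had the largest difference of the 22 measured chemokines, whose median was 0.38, with 4 past 2-fold upward and 1 past 2-fold downward. Cxcl13, which attracts B cells, read 6.68 in control, 8.03 in peptide and 8.78 on the heparin array. The monocyte attractants Ccl7 (7.15, 8.39 and 8.54) and Ccl2 (11.55, 12.70 and 11.99) were at least 2-fold higher with peptide. Ccl20, which attracts dendritic cells and Th17 cells, was lower (8.84 in control, 7.71 in peptide and 7.48 on the heparin array). Of the neutrophil attractants, named after their values were seen, Cxcl1 differed by 0.32 and Cxcl2 by 0.29. Cxcl10, an interferon-induced attractant of activated T cells also named in this way, read 13.11 and 14.09. Without the filter on low values the median of the chemokine list was 0.00.

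Of 8 measured chemokine receptors 1 was at least 1.5-fold higher and 1 lower. Ccr1, a receptor of CCL5 on monocytes and neutrophils, read 7.83 in control, 7.10 in peptide and 7.98 on the heparin array, a difference of -0.73. Ccr3, a receptor of CCL5 on eosinophils, was at the lowest value, 2.18, on all arrays. Ackr1, which takes up chemokines without signalling, read 4.39 on all arrays. Ccrl2, which holds the attractant chemerin on the cell surface, read 4.56 and 5.88, and Cxcr4, the receptor of CXCL12, 7.46 and 7.14. Among 27 measured heparan sulfate proteoglycans and enzymes of their chains, the partners of CCL5 on the cell surface, 0 were 1.5-fold apart, and differences ran from -0.20 to 0.47. Syndecan 4 (Sdc4) read 13.58 and 13.84 and syndecan 1 (Sdc1) 8.53 and 8.54. The largest difference of this list was that of decorin, Dcn (9.64 and 10.11), whose own chain is dermatan or chondroitin sulfate.

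Interleukins and other secreted cytokines had 19 measured members and a median of 0.00, with 1 at least 1.5-fold higher and 2 lower. Il23a, the subunit specific to interleukin 23, read 6.66 in control, 8.08 in peptide and 5.17 on the heparin array. The lower ones were Clcf1, of the interleukin 6 family (6.93 and 6.13), and Il24 (6.02 and 5.38). Il6 itself read 11.24 and 11.59, and osteopontin, Spp1, 14.29 and 13.95. Among 28 measured cytokine receptors and SOCS inhibitors the interleukin 10 receptor Il10ra differed by 0.82 and the interleukin 7 receptor Il7r by -0.71. In the TNF superfamily (12 measured, 2 at least 1.5-fold higher, 0 lower) the death ligand TRAIL, Tnfsf10, read 7.12 in control, 8.85 in peptide and 9.48 on the heparin array, and the death receptor Tnfrsf21 differed by 0.71.

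The NF-kB and toll-like receptor list, 39 measured genes, had a median of 0.004 and 1 gene at least 1.5-fold higher, the kinase Irak2 (9.43 and 10.05), with 0 lower. Next in size were Ripk3, the kinase of necroptosis (0.44), and Tlr7, the sensor of single-stranded RNA in endosomes (0.41). The inflammasome list had 8 measured genes and a median of 0.36. Casp1, which cleaves interleukin-1 beta and gasdermin, read 5.53 in control and 7.09 in peptide (2.96-fold), and Casp4, the receptor of bacterial lipopolysaccharide in the cytosol, 7.11 and 8.38 (2.41-fold). Casp8 (0.41), Casp12 (0.38) and Nlrp6 (0.35) followed. Il1b, singled out after its value was known, differed by -0.27. Of 25 measured genes of apoptosis and necroptosis, 1 was at least 1.5-fold higher, Xiap, an inhibitor of caspases (8.74 and 9.43, a difference of 0.68, or 0.28 with the mean of its probe sets). Cflar, which blocks caspase 8 activation, differed by 0.50. Of the 19 measured adhesion molecules 0 were 1.5-fold apart: the leukocyte adhesion molecule Vcam1 differed by 0.28, and Jam2, of endothelial junctions, by -0.47.

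Markers of blood and tissue cells were read beside these results. Summed over each list, unlogged values in peptide over control had a ratio of 1.21 for neutrophil markers (6 of 8 measured, Camp and Cxcr1 at the lowest value), 1.08 for monocyte and macrophage markers (14 of 15, Cd163 at the lowest value) and 0.822 for T and NK cell markers. Among neutrophil markers 3 were higher and 2 lower by any amount, with a median of 0.03 and a range of -0.47 (Mmp8) to 0.38 (S100a8), and the sum is mostly that of the bright calprotectin genes S100a8 and S100a9 (12.92 in control and 13.16 in peptide). Of the 17 T and NK cell markers 3 were measured, and 8 were at the lowest value on both arrays, among them Cd3d, Cd4, Cd8b, Nkg7 and Ncr1. Cd3e read 4.76 and granzyme B (Gzmb) 5.40 on both arrays, so that the interleukin-7 receptor gene Il7r (7.05 and 6.34, a difference of -0.71) was the measured T cell marker that differed. The B and plasma cell markers gave a ratio of 0.997, with Cd79b, Ms4a1 and Mzb1 at the lowest value, and the 6 mast cell markers were all at it. The largest difference among macrophage markers was that of Fcgr3a, an activating Fc receptor (8.54 and 9.87, with 9.60 on the heparin array), and next came Aif1 with 0.38 and C1qc with 0.28. Of the 46 measured Fc receptors and leukocyte surface antigens 4 were at least 1.5-fold higher and 1 lower. The lectins Clec7a, a receptor of fungal glucans, and Clec10a were higher by 0.76 and 0.59. The part of leukocyte content in the interferon and chemokine results was not tested.

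Several platelet markers were lower in the peptide pool. Of 9 on the array 6 were measured, with a median of -0.48, 3 at least 1.5-fold lower and 0 higher, and the summed ratio was 0.624. Tubb1, the beta-tubulin of platelets, read 6.95 in control, 5.74 in peptide and 5.46 on the heparin array. The platelet chemokine Pf4 read 9.80, 8.90 and 9.04, and the receptor Clec1b 8.61, 7.85 and 7.81. Itga2b, the integrin of platelets, differed by -0.20, Selp (P-selectin, also endothelial) by 0.00, and Gp5 and Gp9 were at the lowest value. With a filter at the 60th percentile the list median was -0.20, and with no filter 0.00. Red cell markers had a summed ratio of 0.957, endothelial markers 0.883 and mural and fibroblast markers 1.12.

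Among the 15 largest negative differences the first was Apln, the gene of apelin, a peptide that dilates vessels and is induced by hypoxia. It read 7.39 in control, 5.53 in peptide and 5.92 on the heparin array, 3.64-fold lower with peptide. The immunoglobulin gene Ighl2 read 5.86, 4.20 and 7.16. Acadsb, which oxidises short branched acyl-CoA from isoleucine, read 8.26, 6.87 and 6.90. Csrp3, a LIM protein of striated muscle, was 2.43-fold lower, the amino acid transporter Slc7a12 2.37-fold, the macrophage and lysosome glycoprotein Gpnmb 2.32-fold and the insulin receptor adaptor Sh2b2 2.30-fold. Of the genes at least 2-fold lower 9 of 11 belonged to a list, as did 1692 of all 9268 genes measured. No list held more than a pair of the 11, and the lists were chosen with earlier results of these data known.

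Vasoactive peptides and their receptors, 18 measured of 38 on the array, had 3 members at least 1.5-fold lower, 2 of them at least 2-fold, and 0 higher, with a median of 0.001. Besides Apln these were neuropeptide Y, Npy, a constrictor released by sympathetic nerves (10.92 in control, 9.91 in peptide and 9.55 on the heparin array), and Ramp2, which turns the calcitonin receptor-like receptor into an adrenomedullin receptor (6.36, 5.54 and 6.11). Hypoxia and glycolysis genes as a list (35 measured) had a median of 0.00, and apart from Apln the member past 1.5-fold was the liver and kidney pyruvate kinase Pklr (7.00 and 7.70). The caveolin genes Cav1 and Cav2, chosen after their values were seen, are neighbours among the measured genes of chromosome 4. They were lower by their brightest probe sets (-0.65 and -0.62). The other measured probe sets of Cav1 differed by -1.80 and -1.0 and those of Cav2 by -0.35 and -0.08.

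Tubular injury and repair genes, 31 measured, had a median of -0.03 with 5 at least 1.5-fold lower and 2 higher. Lcn2, the iron-siderophore carrier released by injured tubules and neutrophils, read 10.26 in control, 9.08 in peptide and 9.23 on the heparin array. Havcr1, kidney injury molecule 1 of injured proximal tubules, read 11.78, 10.86 and 11.05. The fibrinogen gene Fgb read 6.76, 5.81 and 6.56, and Clu (clusterin) 12.42, 11.74 and 12.64 (a difference of -0.68, or -0.34 with the mean of its probe sets). On the higher side stood Sprr1a, a cornified envelope protein (6.73 and 7.55), and the urokinase gene Plau (12.13 and 12.81). By any amount 12 of the 31 were higher and 18 lower.

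Coagulation and fibrinolysis genes went both ways, with 3 of 22 measured at least 1.5-fold higher and 2 lower. Procr, the endothelial receptor of protein C, read 10.29 in control, 9.46 in peptide and 10.72 on the heparin array, whereas prothrombin, F2, read 4.98 and 5.74 and the protease inhibitor Serpine2 5.58 and 6.26. Of 17 measured complement genes, Mbl1, a mannose-binding lectin, was higher by 0.66 and Clu, which also blocks complement, was the lower one. Growth factors and receptors (42 measured) had 1 member at least 1.5-fold lower, midkine, Mdk (7.29 and 6.42), and 0 higher. The VEGF receptor Kdr (-0.56, or -0.28 with the mean of its probe sets), the vessel-destabilising Angpt2 (-0.53) and the HGF receptor Met (-0.50) followed. In the TGF-beta and BMP pathway Bambi, a decoy receptor (0.66), and the activin subunit Inhba (0.61) were at least 1.5-fold higher.

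Matrix and cytoskeleton lists had members past 1.5-fold on the lower side. Of 55 measured collagens, laminins and integrins 2 were at least 1.5-fold lower and 0 higher: the laminin chain Lamb3 (7.49 and 6.86) and Itgax, an integrin of dendritic cells and macrophages (8.99 and 8.38). The fibrillar collagens Col1a2 and Col3a1 differed by -0.54 and -0.47. Of 25 matrix proteases and inhibitors Mmp14, the membrane-type collagenase (8.92 and 8.31, a difference of -0.60, or -0.30 with the mean of its probe sets), was the member past 1.5-fold. Of 43 measured keratins, actins and other cytoskeletal genes 6 were at least 1.5-fold lower, 2 of them at least 2-fold (Csrp3 and Tubb1), and 0 higher. The other named ones were Myh1 (13.04 and 12.17), the tropomyosin Tpm1 (11.30 and 10.56, but -0.22 with the mean of its probe sets) and the beta-tubulin Tubb2b (9.24 and 8.62). Myh1 is a myosin of fast skeletal muscle. Its 5 probe sets differed by -0.87 to -0.24, while 7 of the 10 skeletal muscle markers, among them Ckm, Myh2 and Tnnt3, were at the lowest value on both arrays.

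The kallikreins were a small family in which every measured member was higher with peptide. Tissue kallikrein is a serine protease of the connecting tubule that frees kinins. Klk1b3 read 11.18 in control, 12.28 in peptide and 9.71 on the heparin array. Klk1 read 10.12, 10.92 and 8.43, and Klk1c4 6.74, 7.39 and 2.78. For each of the 3 genes the peptide value was above the control value and the heparin value below it. Only 3 of the 15 kallikrein, kininogen and kinin receptor genes on the array were measured, so the list median was 0.81 for these 3 and 0.00 without the filter. The 3 genes are neighbours among the measured genes of chromosome 1 and are close copies, so their probe sets may read the same transcripts.

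Tubule transport genes differed little. Of the 25 measured proximal tubule markers 0 were 1.5-fold apart, with a median of 0.04. The brush border peptidase Anpep (0.56), the gluconeogenic enzyme Fbp1 (0.53) and the dicarboxylate transporter Slc13a3 (0.34) had the largest differences. Among the 33 measured genes of the loop, distal tubule and collecting duct the potassium channel Kcnj1 (ROMK) was lower (10.02 and 9.37) and the paracellular channel Cldn10 differed by 0.53 and the water channel Aqp4 by -0.49. Podocyte markers (13 measured) had 1 gene at least 1.5-fold lower, the transcription factor Wt1 (7.48 in control, 6.68 in peptide and 8.0 on the heparin array, with -0.40 for the mean of its probe sets), and 0 higher. The other potassium channel past 1.5-fold was Kcnj8, a pore subunit of ATP-sensitive channels (5.27 and 5.94). Of 45 organic ion and ABC transporters Abcb10, of mitochondria, differed by 0.91, but by 0.03 at a second measured probe set. Of 60 other solute carriers 0 were 1.5-fold apart, with the sodium-proton exchanger Slc9a3 at 0.52. The tight junction protein Cldn1 was lower by its brightest probe set (-0.65, or -0.36 with the mean of its probe sets).

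Of the 14 carbonic anhydrases on the array 6 were measured. These were all higher with peptide, by 0.06 to 0.43, and all 6 were also higher after quantile normalization and after centring of the arrays. Their median was 0.17, but 0.00 with no filter. These enzymes handle bicarbonate in the tubule. The largest differences were those of Car14, a membrane form (8.25 in control and 8.68 in peptide), Car8, a form without enzyme activity (7.50 and 7.87), and Car4 (9.15 and 9.38). On the heparin array Car14 read 7.93 and Car8 7.93. Of the 6, 0 were 1.5-fold apart, and 2 had a further measured probe set that pointed the other way.

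**Figure D5:**
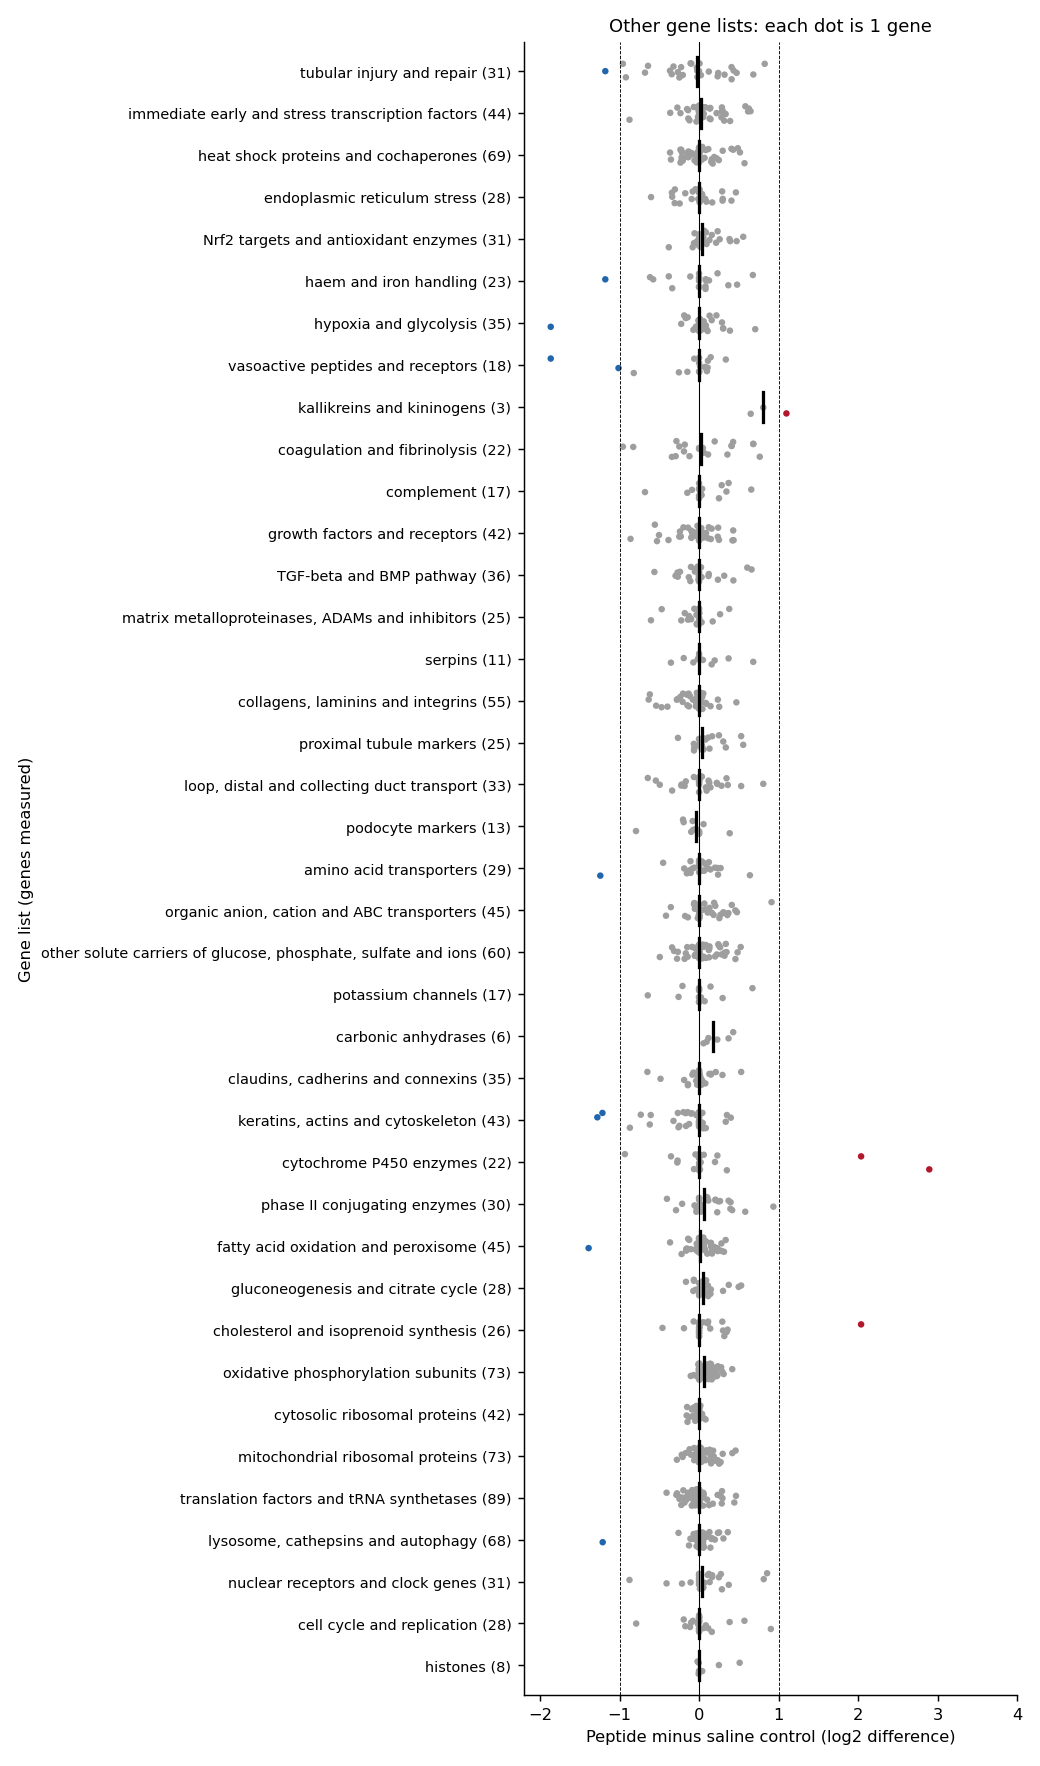
Peptide minus saline control differences (log2) of the measured genes of the injury, vascular, tubule and metabolic lists, with the number measured in brackets; each dot is a gene, black bars are list medians, dashed lines mark 2-fold and coloured dots are genes past it. List medians lie near 0 except those of the 3 kallikreins (0.81) and the 6 carbonic anhydrases (0.17).

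Metabolic lists showed small differences. Of 73 measured subunits of oxidative phosphorylation 48 were higher, 4 lower and 21 identical, with a median of 0.06 and 0 past 1.5-fold. Quantile normalization gave 48 higher and 24 lower, and centring of the arrays 45 and 28. Of 42 cytosolic ribosomal proteins 6 were higher, 20 lower and 16 identical, with all differences between -0.16 and 0.08 (7 and 32 after quantile normalization). Among 45 measured genes of fatty acid oxidation Acadsb was the member past 1.5-fold, and next came Pdk4, the kinase that blocks pyruvate dehydrogenase (-0.36). Of 30 phase II conjugating enzymes the methyltransferase Inmt was higher (8.13 in control, 9.06 in peptide and 6.78 on the heparin array). The cholesterol synthesis list (26 measured) held the sterol hydroxylase Cyp27a1 and, next in size, the sterol oxidase Msmo1 (-0.46). Its member Abca1 differed by 0.32 at its brightest probe set, and by 1.70, 0.065 and 0.0 at its other measured ones.

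Stress responses were likewise close to control. Of 69 heat shock proteins and cochaperones 0 were 1.5-fold apart, and 0 of the 31 antioxidant genes, in which Osgin1 (0.56) and the haem oxygenase Hmox1 (12.91 and 12.53) were among the largest. Of 28 genes of endoplasmic reticulum stress Creld2 was lower by 1.5-fold (9.47 and 8.87), and Atf6, a sensor of that stress, differed by 0.46. Of 44 immediate early and stress factors 3 were at least 1.5-fold higher: Cebpb (0.65), a factor of the acute phase, Dusp5 (0.63), a phosphatase of ERK, and Bhlhe40 (0.62). The orphan receptor Nr4a3 was lower (6.53 in control and 5.65 in peptide, or -0.29 with the mean of its probe sets). In haem and iron handling the mitochondrial iron importer Slc25a37 differed by 0.68 and the iron exporter Slc40a1 by -0.62 (-0.30 with the mean of its probe sets). Among clock genes the repressor Nr1d1 (6.65, 7.50 and 6.85 in control, peptide and heparin) and the output factor Dbp (8.64, 9.46 and 9.14) were higher with peptide, whereas the repressor Cry1 read 8.28 and 7.87. In the cell cycle list Plk2 was higher (9.09 and 9.99) and Ccnd2, a D-type cyclin, lower (7.85 and 7.06), while the inhibitor Cdkn1a differed by 0.57, or by 1.09 with the mean of its probe sets.

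Of the 67 genes at least 2-fold higher 20 stood in no list, and of the 11 lower 2 did, Ighl2 and Sh2b2. Of all 9268 genes measured 1692 stood in a list. Those not yet described are named after their values were seen. They included Rtp4, a receptor transporter (8.79 and 10.01), Rnf213, a very large ubiquitin ligase (10.38 and 11.74, with a second probe set at 1.49), Znfx1, a helicase that binds viral RNA (9.16 and 10.38), Lgals3bp, a galectin ligand (8.96 and 10.22), Hsh2d, an adaptor of blood cells (6.25 and 7.81), and Slamf9, a surface protein of myeloid cells (6.07 and 7.41). For each of these 6 genes the heparin value was also above the control value, at 10.33, 11.84, 10.87, 10.44, 7.80 and 7.84 in the same order. The genes were picked for high peptide values over that same control array, so this is no separate observation. The rest included Eppk1, which binds keratin filaments (6.89 and 8.02), Coch (6.53 and 7.64), Saxo4 (4.94 and 6.04), Reep6 (5.57 and 6.65) and the nucleoside transporter Slc28a2 (9.10 and 10.17). On the heparin array Saxo4 read 4.03, below its control value, and Reep6 5.73.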

How the data were processed

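Each of the 3 arrays has 1 column of deposited log2 expression values, which the submitters' processing notes tie to GCRMA (a background correction by probe sequence, no version). The sources used here do not say how GCRMA was run or whether arrays were scaled to each other. The log2 values were used as deposited by the authors. Identical values on different arrays are common, so a difference of 0 can come from the summarisation of probes.

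Platform annotation gave 1 gene symbol for 20832 of 31099 probe sets, several for 436 and none for 9831. These made 14218 genes, of which 14168 had an identifier in the RefSeq table. Bounds were taken for genes under the median of 1 array that reached the 60th percentile of the other, as the bright value over the dim array's median or the dim value, whichever was higher. Fold differences are 2 raised to the log2 difference. Arrays have no depth, and their number limits the precision.

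The members, the 75 gene lists and the rule for named genes were chosen with earlier results of these data known. Of 979 list entries 822 matched by symbol, 13 by synonym, and 144 did not. The rule named the 20 largest positive and 15 largest negative differences, bounds, up to 5 members of each list with the largest differences, and Ccl5, its receptors and partners. Alternatives were quantile normalization, centring, filters, mean of probe sets, an offset of 32 and other fold thresholds. Counting was checked on simulated data. Python 3.11.15 with pandas 2.3.3, numpy 2.4.6 and matplotlib 3.10.9 was used.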

Additional observations from a re-analysis of the deposited data

How the results depend on the processing

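The 67 genes at least 2-fold higher were 65 after quantile normalization (64 of them shared), 66 after centring, 53 with 32 added to the unlogged values and 55 under a stricter filter (the 60th percentile of each array). The 11 lower genes were 7 under the stricter filter and 6 with 32 added, where fewer genes or compressed low values enter by construction. At 1.5-fold 196 genes were higher and 85 lower, and at 4-fold 10 and 0. Of the list medians under the alternatives 541 moved by less than the spread of differences across genes, 0.233. The other 7 were those of ISG15 and FAT10 conjugation (0.82 under the stricter filter, 0.80 with 32 added), chemokines (0.00 with no filter), chemokine receptors (-0.32 under the stricter filter), kallikreins (0.00 with no filter) and platelet markers (-0.20 under the stricter filter, 0.00 with no filter). Of the values of named genes 2458 moved by less than that spread and 56 by more. The cause was not tested. With any start listed for a gene, an alternative chosen after seeing the data, 22 of 53 promoters of genes at least 2-fold higher held the response element core, and 246 of the measured genes. No paired analysis was possible because each group is 1 pooled array. Signal close to the array median limits the dim genes, and 1 array per group leaves every difference without an error.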
